A study of Homo sapiens with 12 samples.

Results

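The JmjC, TET and AlkB enzymes that act on chromatin and nucleic acids were followed in Huh7 cells treated with Molidustat. Members were taken from a list of 37 gene symbols matched by Ensembl identifier to the 60666 genes counted in each library, and all 37 were found. By role they comprise 17 histone demethylases of the KDM2 to KDM7 families, 8 small JmjC proteins, 3 TET enzymes and 9 AlkB enzymes. Of these, 36 had enough reads to be tested among 14274 genes, and KDM8 did not pass the filter on low counts. Huh7 is a long-established line from a human liver tumour. Molidustat is a small-molecule inhibitor of the HIF prolyl hydroxylases, whose block lets HIF-α subunits build up as in low oxygen. The 4 groups were cells given DMSO alone or Molidustat at 25 µM, each for 24 h or for 48 h, with 3 libraries per group and 12 in all. The labels name no genetic change and no other agent, so the groups differ in the inhibitor and the time. The study's methods call the replicates biological while its public record mentions only triplicate extractions, so the p-values measure the spread between these samples, whatever its source.

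These enzymes are known or predicted to share one chemistry. They use Fe(II), molecular oxygen and 2-oxoglutarate to hydroxylate their substrate, and hydroxylation of an N-methyl group is followed by its loss as formaldehyde. With this chemistry JmjC demethylases remove methyl marks from histone lysines, and several AlkB enzymes remove methyl groups from DNA or RNA bases. TET enzymes oxidise the methyl group of 5-methylcytosine in DNA. The HIF prolyl hydroxylases EGLN1, EGLN2 and EGLN3 belong to the same superfamily, and in hypoxia HIF is known to bind A/G-CGTG elements in the promoters of target genes. Among the members, KDM3A, KDM4B, KDM4C and ALKBH5 are known as hypoxia-inducible in various cell types.

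The numbers of reads on genes were 2462623 to 4744982 per library with DMSO at 24 h, 2703897 to 8202125 with Molidustat at 24 h, 1499273 to 9179389 with DMSO at 48 h and 2312396 to 5122636 with Molidustat at 48 h. Levels are given as counts-per-million (CPM) values, relative to the reads on genes of each library after TMM scaling, a correction for differences in RNA composition. Reads come from the 3′ end of each transcript, so CPM values compare samples for 1 gene, not genes with each other. Gene coordinates are those of GRCh38 in GENCODE 44. Exons of 20 of the 37 members overlap those of another annotated gene, and the strand setting of the counting is not given in the sources used here, so reads of such pairs could have gone to either. Intervals on counts cover counting error only, not the spread between libraries. That spread was far larger than counting error, with a chi-square per degree of freedom of 10.9 to 144 between libraries of the same group. No source used here says whether molecular identifiers were collapsed. In bulk RNA, fewer cells with a transcript and less of it per cell cannot be told apart.

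One library stood apart. In DMSO 48 h replicate 2, the smallest, 50.44% of the listed reads lay outside annotated genes, against 17.08 to 25.64% in the 11 others. Its TMM scaling factor was 0.629, against 1.01 to 1.08 in the others, which raises its CPM values relative to the plain share of reads. Its correlation with the other libraries over genes on the log2 scale was 0.71 to 0.78, against 0.86 to 0.96 among the others, as a description with genes as points. For many of the values that it moved by a large amount, the value without it is given too.

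The label of the cells held in the data. All 10 hepatocyte markers were detected, with the fetal protein AFP the most abundant, and their summed level was 9230 CPM in DMSO 48 h replicate 2 and 13000 to 30400 CPM elsewhere. The 6 fibroblast markers summed to 1.86 to 22.2 CPM, with LUM the most abundant over all libraries, although the mean of COL1A2 was above that of LUM in Molidustat 24 h and in DMSO 48 h. The 6 blood and endothelial markers summed to 42.9 to 232 CPM with LYZ the most abundant, and 2 of them were at 0 in every library. These sums moved apart with treatment at 48 h. There the hepatocyte sum was 25300 to 30400 CPM with Molidustat against 9230 to 17400 CPM with DMSO. The fibroblast sum was 14.6 to 22.2 against 2.13 to 7.59 CPM, and the blood and endothelial sum 42.9 to 72.5 against 104 to 140 CPM. At 24 h the hepatocyte sum was 19500 to 23600 against 13000 to 16000 CPM. The fibroblast sums then overlapped, at 2.87 to 7.88 against 1.86 to 8.27 CPM. So did the blood and endothelial sums, at 146 to 170 against 160 to 232 CPM. Of the 10 hepatocyte markers 8 had a log2 fold change above 0 over both times, beside 49.3% of all genes. SERPINA1, TF and AHSG were called higher, beside 0.988% of all genes. HNF4A was at -1.06 (SE 0.57, edgeR adjusted p = 0.511), or -0.14 (SE 0.39, edgeR adjusted p = 0.945) without DMSO 48 h replicate 2. APOB was at -0.2 (SE 0.23, edgeR adjusted p = 0.801). In the other marker lists, 0 of the 4 fibroblast and 0 of the 2 blood and endothelial markers tested were called. The part of these shifts in the results on the members was not tested.

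Known HIF target genes rose with the inhibitor. Of 12 hypoxia marker genes, 11 were tested and 9 were called higher over both times, with a median log2 fold change of 2.36. BNIP3, which encodes a mitophagy receptor, had a log2 fold change of 2.74 (SE 0.24, edgeR adjusted p = 1.36e-05). PGK1, a glycolytic kinase, had 2.39 (SE 0.25, edgeR adjusted p = 6.9e-05), and the glucose transporter gene SLC2A1 had 1.81 (SE 0.25, edgeR adjusted p = 0.00121). NDRG1 followed with 2.36 (SE 0.41, edgeR adjusted p = 0.00768). EGLN3, also often induced in hypoxia, was not called, with 0.84 (SE 0.7, edgeR adjusted p = 0.7), or 1.38 (SE 0.66, edgeR adjusted p = 0.424) without DMSO 48 h replicate 2, and its level was 0 to 17.5 CPM across the libraries.

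Since HIF binds through a short core, promoter sequences are shown for KDM3A, ALKBH5, KDM4B and HSPBAP1. RefSeq promoter windows of build GRCh38.p14 were held for 34 of the 37 members, in 49 windows of 250 bases upstream of a transcription start. The core was searched as ACGTG and GCGTG and, for the other strand, as CACGT and CACGC. Matches may overlap, so that CACGTG counts as 2. A match was present in 25 of the 34 members, beside 12945 of 27305 genes (47.4%). By window it was present in 30 of the 49 (61.2%), beside 15172 of 35116 windows of all genes (43.2%). KDM4C, KDM6A and TET3, whose sequences are not shown, have 5 matches each in a window, and edgeR called none of them over both times. Matches are descriptions of the letters, not of bound sites. The core is in capitals in each sequence, read 5′ to 3′ on the strand of the gene.

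KDM3A, the member called, has 1 match 26 bases before the first start that RefSeq gives, a place inside the longer GENCODE span of the gene. The 30 bases around it lie at chr2:86441333-86441362 on the plus strand:
KDM3A: ccgggaggctgtGCGTGtcttgtgagagct
ALKBH5 has 4 matches, 2 of them overlapping, in a window that also lies inside the GENCODE span, at chr17:18183578-18183827 on the plus strand:
ALKBH5: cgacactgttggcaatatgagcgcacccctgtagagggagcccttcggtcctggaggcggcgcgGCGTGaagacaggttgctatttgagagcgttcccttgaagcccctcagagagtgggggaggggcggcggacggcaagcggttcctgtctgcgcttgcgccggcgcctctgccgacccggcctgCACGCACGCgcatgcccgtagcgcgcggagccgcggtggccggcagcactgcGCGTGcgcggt
KDM4B also has 4, of which 2 overlap, at chr19:4968863-4969112 on the plus strand:
KDM4B: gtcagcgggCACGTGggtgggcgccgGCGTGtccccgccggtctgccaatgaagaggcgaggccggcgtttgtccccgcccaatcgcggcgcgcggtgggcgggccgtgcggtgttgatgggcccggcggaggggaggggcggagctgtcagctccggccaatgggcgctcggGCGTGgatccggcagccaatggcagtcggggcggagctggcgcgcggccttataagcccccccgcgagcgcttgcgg
HSPBAP1, the member with the lowest fold change over both times, has 5 at chr3:122793832-122794081 on the minus strand, so a match was also present where the value was low, while ALKBH8, the lowest at 48 h, has none:
HSPBAP1: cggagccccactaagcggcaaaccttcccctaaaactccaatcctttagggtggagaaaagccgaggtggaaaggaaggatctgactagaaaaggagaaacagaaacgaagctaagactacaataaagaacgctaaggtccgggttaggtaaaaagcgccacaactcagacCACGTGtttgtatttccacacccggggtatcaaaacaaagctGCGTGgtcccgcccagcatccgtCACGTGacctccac

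As a group the members centred near 0. Their median log2 fold change for Molidustat against DMSO was 0.14 at 24 h, 0.15 at 48 h and 0.17 over both times, where the medians of all 14274 genes were 0.02, 0.01 and -0.01. The log2 fold change was above 0 in 24 of 36 members at 24 h (66.7%), 19 at 48 h (52.8%) and 21 over both times (58.3%), beside 51.5%, 50.4% and 49.3% of all genes. At 24 h, 0 members were called higher and 0 lower at an edgeR adjusted p under 0.05, beside 0.231% and 0% of all genes. At an unadjusted p under 0.05, 6 members were higher and 0 lower at that time, beside 3.73% and 1.52% of all genes. At 48 h the members called were again 0 and 0, beside 0.210% and 0.0210% of all genes. There, 4 were higher and 6 lower at an unadjusted p under 0.05, beside 4.53% and 8.81% of all genes. Without DMSO 48 h replicate 2, 7 members rather than 10 passed that threshold at 48 h in either direction. The 48 h median was then 0.08, beside 0.01 for all genes, with 22 members above 0. The shares of all genes for these counts in that fit are not given here, so the counts stand without a background. DESeq2 called 2 members higher at 24 h, where it called 0.856% of all genes, and 1 at 48 h, where it called 1.28%.

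Over both times together, where all 12 libraries enter the comparison, 1 member was called higher, KDM3A, and 0 were called lower. The background was 0.988% of all genes called higher and 0.0841% lower. At an unadjusted p under 0.05, 7 were higher and 4 lower, beside 5.79% and 5.24% of all genes. With DESeq2, 4 members were higher over both times, KDM3A, ALKBH5, KDM7A and TET1, and 0 lower, beside 1.97% and 0.480% of all genes tested. Without DMSO 48 h replicate 2, edgeR called 3 members higher, KDM3A, ALKBH5 and KDM4B, and 0 lower, beside 1.48% and 0.334%. The count of members called thus depends on the tool and on that library, and KDM3A is the one that all these settings share.

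**Figure D1:**
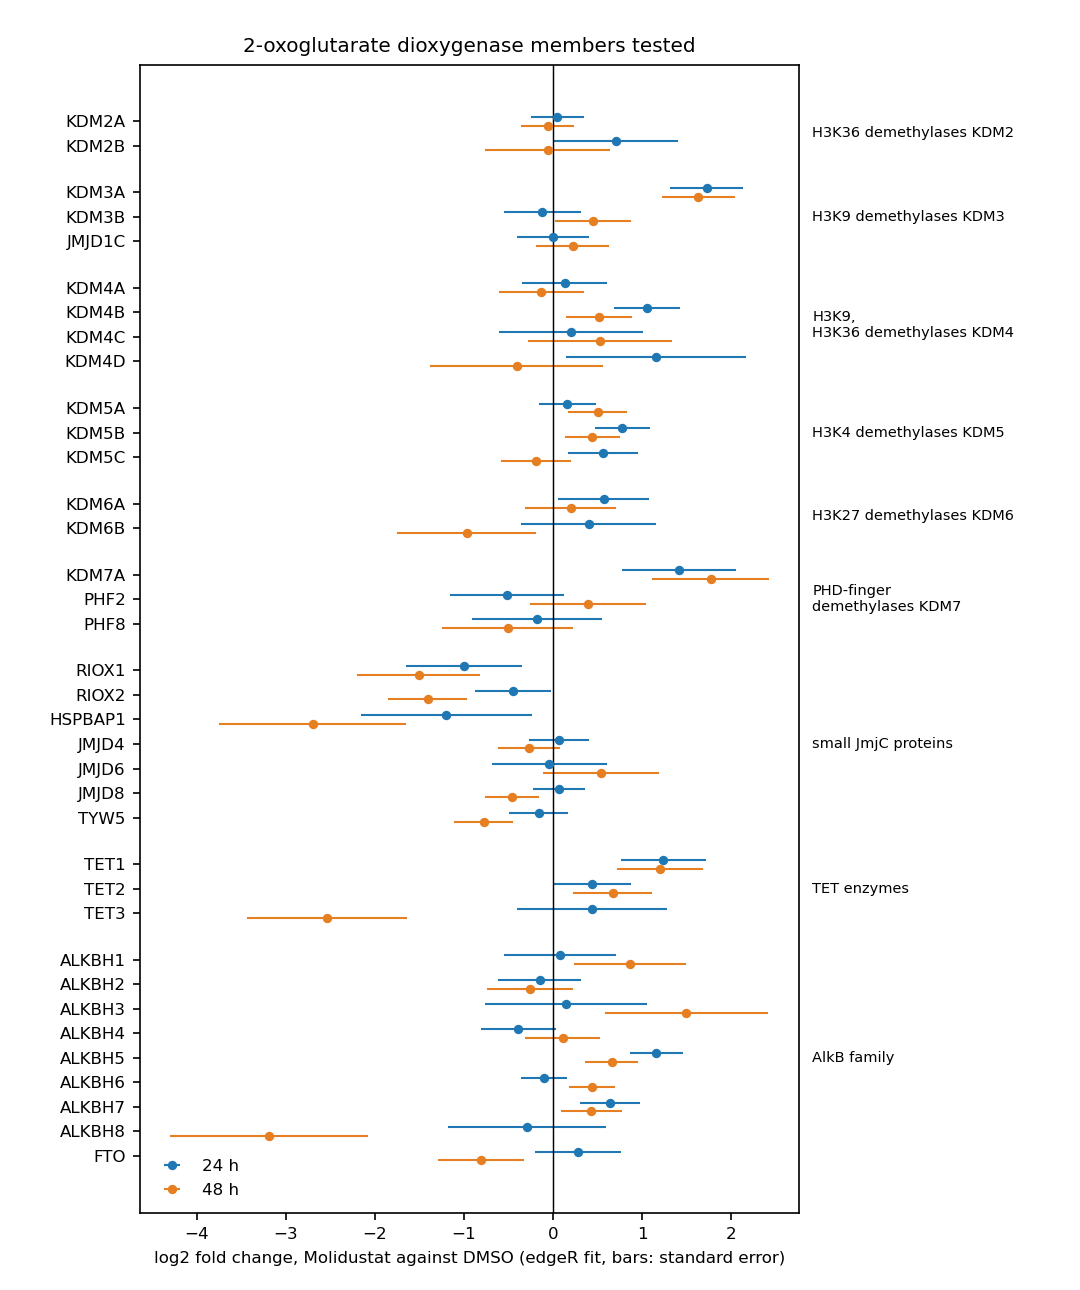
Log2 fold change of Molidustat against DMSO at 24 h (blue) and at 48 h (orange) for the 36 members tested, by role group, with edgeR standard errors as bars. KDM3A lies at 1.73 and 1.63, and the lowest values are those of ALKBH8, HSPBAP1 and TET3 at 48 h, at -3.19, -2.7 and -2.54.

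The response was also compared between the times. In the test of the difference between the 48 h and the 24 h response, edgeR called 0 members and 0% of all genes, and 1 member and 6.78% of all genes had an unadjusted p under 0.05. Between 48 h and 24 h within DMSO it called 0 members and 0.00701% of all genes, and 1 member and 8.14% of all genes had an unadjusted p under 0.05. Within Molidustat it called 0 members and 0% of all genes, with 2 members and 4.58% of all genes at an unadjusted p under 0.05. DESeq2 called 0 members in each of the 3. Of all genes it called 0.00354% higher and 0.0106% lower for the difference. The shares were 0.259% and 0.0576% within DMSO, and 0.0401% and 0.0251% within Molidustat. With all libraries, the member with the lowest value for the difference was TET3, with -2.98 (SE 1.23, edgeR adjusted p = 0.728). Without the library described above TET3 was at -1.55 (SE 1.09, edgeR adjusted p = 1). ALKBH8 was next with all libraries, at -2.9 (SE 1.4, edgeR adjusted p = 0.754), and its response at 48 h was -3.19 with and -3.44 without that library.

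A count that needs no model is the number of members whose 3 Molidustat libraries all lay above, or all below, the 3 DMSO libraries in CPM. At 24 h, 7 of 36 members lay above (7.26% of all genes did) and 1 below (5.02%). At 48 h, 9 lay above (9.96%) and 5 below (8.02%), and without DMSO 48 h replicate 2 the count above was 12 (13.7%) and that below 5 (15.4%). At both times, 5 lay above (2.20% of all genes), namely KDM3A, KDM7A, TET1, ALKBH5 and ALKBH7, and 1 below (0.813%), HSPBAP1. KDM4B and KDM5B joined the first group when that library was left out, making 7 (3.03%). In CPM without TMM scaling 6 lay above at both times (2.23%), with KDM4B and KDM5B and without KDM7A, whose libraries then overlapped at 24 h, and 1 lay below (0.525%). On that scale, chosen after seeing the data, TYW5 overlapped at 48 h. With 3 libraries against 3, the smallest two-sided p of an exact permutation test is 0.1, so none was run on single members.

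Among the H3K9 demethylases of the KDM3 family, KDM3A was the member that rose. KDM3A (ENSG00000115548, chr2:86440647-86492716, plus strand) removes mono- and dimethyl groups from histone H3 lysine 9. Its level was 9.65, 14.6 and 7.44 CPM with DMSO and 28.3, 26.5 and 49.4 CPM with Molidustat at 24 h. At 48 h it was 12.6, 9.58 and 11.7 CPM with DMSO and 38.9, 24.9 and 42.8 CPM with Molidustat. Every treated library was above every control library at either time, and the DMSO levels at 24 h and at 48 h overlapped. The log2 fold change was 1.73 at 24 h (SE 0.41, edgeR adjusted p = 0.142) and 1.63 at 48 h (SE 0.41, edgeR adjusted p = 0.154). DESeq2 called it at both, with adjusted p = 0.00816 and 0.0152. Over both times it was 1.68, or 3.21-fold (SE 0.29, edgeR adjusted p = 0.00733). In the 18 alternatives that kept the gene its value over both times was 1.5 to 1.82 and was called in each (adjusted p 2.9e-06 to 0.0358).

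The relatives of KDM3A were not called. KDM3B, which acts on the same lysine, was at 32.2, 20.8 and 42.3 CPM with DMSO and 45.2, 15.1 and 28.5 CPM with Molidustat at 24 h, and its libraries overlapped at both times. Its log2 fold change over both times was 0.16 (SE 0.3, edgeR adjusted p = 0.898). JMJD1C, the third of the family, had 0.11 (SE 0.29, edgeR adjusted p = 0.927). The log2 ratio of KDM3A to KDM3B counts within a library (pseudocount 0.5) was higher with Molidustat by 1.55 over both times (exact permutation test within times, two-sided, p = 0.01, adjusted p = 0.0225 over the 3 pairs computed), and by 0.96 at 48 h without DMSO 48 h replicate 2 against 1.22 with it. The other pairs were KDM4B to KDM4A, with 0.83 (exact permutation p = 0.015, adjusted p = 0.0225), and ALKBH5 to FTO, with 1.03 (exact permutation p = 0.025, adjusted p = 0.025), where the 48 h difference of 1.21 was 0.51 without that library. Each p-value is from all 12 libraries. The 3 pairs were chosen after their values were seen, a choice that the adjustment over 3 pairs does not cover. These tests are therefore not independent evidence.

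In the KDM4 family, which demethylates H3K9 and H3K36, KDM4B had the highest fold change over both times. EdgeR called none of the family in the fit of all 12 libraries. KDM4B (ENSG00000127663, chr19:4969113-5153598, plus strand) was at 42.9, 30.4 and 30.6 CPM with DMSO and 55.2, 56.6 and 106 CPM with Molidustat at 24 h. At 48 h it was at 41.1, 76.7 and 39.4 CPM with DMSO and 67.9, 61.8 and 90.6 CPM with Molidustat. The groups were apart at 24 h. At 48 h they overlapped through the value of 76.7 CPM, which is that of DMSO 48 h replicate 2 after TMM scaling, and in CPM without TMM scaling they did not overlap. EdgeR gave a log2 fold change of 1.06 at 24 h (SE 0.37, edgeR adjusted p = 0.603) and 0.52 at 48 h (SE 0.37, edgeR adjusted p = 0.6), or 0.86 at 48 h (SE 0.34, edgeR adjusted p = 0.613) without that library. Over both times it was 0.79 (SE 0.26, edgeR adjusted p = 0.237), and without that library 0.97 (SE 0.23, edgeR adjusted p = 0.0336). KDM4B was called over both times in 3 of 19 alternatives (adjusted p 0.00223 to 0.465). With all 12 libraries limma-voom called it, with 0.95 (SE 0.21, limma-voom adjusted p = 0.0105).

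KDM4C (ENSG00000107077, chr9:6720863-7175648, plus strand) was low and scattered. It was at 3.67, 1.93 and 8.06 CPM with DMSO and 3.59, 7.04 and 5.19 CPM with Molidustat at 24 h, and at 5.15, 1.06 and 8.27 against 2.02, 11.6 and 9.21 CPM at 48 h. The groups overlapped at both times, and the gene shares exons with an lncRNA on its own strand. Summed counts gave 5.09 CPM with DMSO (95% Poisson interval 3.88 to 6.55) and 5.85 CPM with Molidustat (4.74 to 7.16) at 24 h. The log2 fold change over both times was 0.36 (SE 0.57, edgeR adjusted p = 0.869), or 0.18 (SE 0.53, edgeR adjusted p = 0.951) without DMSO 48 h replicate 2, and at 48 h it was 0.53 with and 0.15 without it. KDM4A had 0 (SE 0.34) and KDM4D, at 0 to 7.45 CPM, had 0.38 (SE 0.69), and neither was called.

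ALKBH5, one of the 2 demethylases of N6-methyladenosine in RNA, came closest to a call after KDM3A. ALKBH5 (ENSG00000091542, chr17:18183078-18209954, plus strand) was at 127, 147 and 119 CPM with DMSO and 244, 403 and 232 CPM with Molidustat at 24 h. At 48 h it was at 140, 133 and 151 CPM with DMSO and 247, 193 and 234 CPM with Molidustat. All 6 treated libraries were above all 6 control libraries. The log2 fold change was 1.16 at 24 h (SE 0.3, edgeR adjusted p = 0.232) and 0.66 at 48 h (SE 0.3, edgeR adjusted p = 0.35). DESeq2 called it at 24 h, with 1.17 (SE 0.28, adjusted p = 0.00539). Over both times it was 0.91 (SE 0.21, edgeR adjusted p = 0.0517), and it was called in 6 of 19 alternatives (adjusted p 9.77e-05 to 0.194). ALKBH5 shares exons with an lncRNA on the opposite strand.

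FTO, the other N6-methyladenosine demethylase, was at 20.4 to 27.7 CPM with DMSO and 24.4 to 34.2 CPM with Molidustat at 24 h. At 48 h it was at 21.4, 92.6 and 25.7 CPM with DMSO against 23.6, 32.2 and 21.2 CPM with Molidustat, where the value of 92.6 CPM is again that of replicate 2. Its log2 fold change at 48 h was -0.81 (SE 0.48, edgeR adjusted p = 0.515), and without that library 0.1 (SE 0.36, edgeR adjusted p = 0.997). Over both times it was -0.26 (SE 0.34, edgeR adjusted p = 0.83), or 0.2 (SE 0.25, edgeR adjusted p = 0.84) without that library.

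The other AlkB enzymes gave no call for Molidustat against DMSO. ALKBH7, a mitochondrial protein, was at 41.3, 27.3 and 49 CPM with DMSO and 52, 65.3 and 66.3 CPM with Molidustat at 24 h, and at 42.3, 20.2 and 42.5 against 48.5, 45.5 and 50.7 CPM at 48 h. Its groups did not overlap at either time, and its log2 fold change over both times was 0.53 (SE 0.24, edgeR adjusted p = 0.429). ALKBH7 shares exons with PSPN on the opposite strand. The DNA repair enzymes ALKBH2 and ALKBH3 had -0.2 and 0.83 over both times, ALKBH1, which acts on tRNA, had 0.47, and ALKBH4 and ALKBH6 had -0.14 and 0.17. For these 5 the edgeR adjusted p over both times was 0.671 to 0.911.

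ALKBH8, which modifies the wobble uridine of tRNA, was near 0 in treated cells at 48 h. ALKBH8 (ENSG00000137760, chr11:107502727-107565742, minus strand) was at 4.59, 11.9 and 2.27 CPM with DMSO and 8.25, 4.25 and 2.88 CPM with Molidustat at 24 h, with overlap. After 48 h the values were 2.71, 1.06 and 2.89 CPM with DMSO and 0.449, 0 and 0.188 CPM with Molidustat, with no overlap. The lowest control value, that of DMSO 48 h replicate 2, rests on 1 count, and the highest treated value on 2 counts. The groups were also apart without that library and in CPM without TMM scaling. The treated libraries held 3 counts at 48 h and the controls 49, so that the CPM level was 11 times as high with DMSO (95% counting interval 3.55 to 55.1). At 24 h the same ratio was 1.17 (0.82 to 1.66). These intervals leave out the spread between libraries, which the edgeR fit takes in. That fit did not call ALKBH8 at 48 h, with -3.19 (SE 1.11, edgeR adjusted p = 0.233), nor over both times, with -1.74 (SE 0.71, edgeR adjusted p = 0.369).

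**Figure D2:**
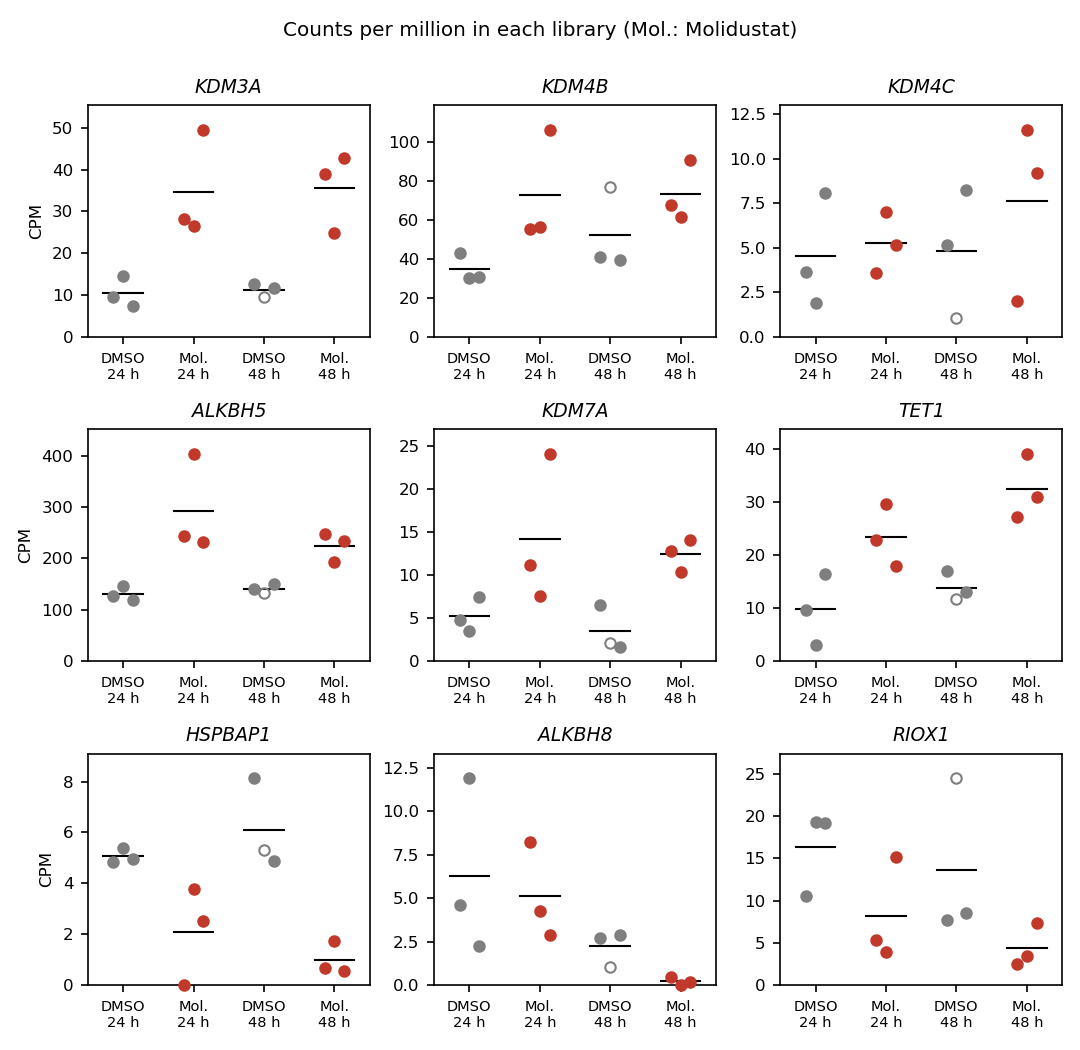
Levels in CPM in each of the 12 libraries for the 9 members described in full, with grey points for DMSO, red points for Molidustat, black lines for group means and an open point for DMSO 48 h replicate 2. Treated and control libraries of KDM3A, ALKBH5, KDM7A and TET1 do not overlap at either time, save KDM7A at 24 h if TMM scaling is left out, while those of KDM4C overlap at both.

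Of the PHD-finger demethylases, KDM7A, which acts on H3K9 and H3K27, had the second highest value among the members over both times. KDM7A (ENSG00000006459, chr7:140084746-140176983, minus strand) was at 4.82, 3.47 and 7.44 CPM with DMSO and 11.1, 7.53 and 24 CPM with Molidustat at 24 h. The 48 h libraries gave 6.51, 2.13 and 1.65 CPM with DMSO and 12.8, 10.3 and 14.1 CPM with Molidustat. The treated libraries were above the controls at both times, at 24 h by a margin of 7.53 over 7.44 CPM that was lost without TMM scaling. EdgeR gave a log2 fold change of 1.42 at 24 h (SE 0.64), 1.77 at 48 h (SE 0.66) and 1.6 over both times (SE 0.46, edgeR adjusted p = 0.156). It was called over both times in 3 of 18 alternatives (adjusted p 0.0162 to 0.346). PHF2 and PHF8 had -0.07 and -0.34 over both times and were not called.

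Of the TET enzymes, TET1 came next. TET1 (ENSG00000138336, chr10:68560337-68694487, plus strand) was at 9.65, 3.08 and 16.5 CPM with DMSO and 22.9, 29.6 and 17.9 CPM with Molidustat at 24 h. After 48 h the levels were 16.9, 11.7 and 13 CPM with DMSO and 27.2, 39 and 31 CPM with Molidustat. No treated library fell within the range of its controls. The log2 fold change was 1.24 at 24 h (SE 0.48), 1.2 at 48 h (SE 0.48) and 1.22 over both times (SE 0.34, edgeR adjusted p = 0.144). It was called over both times in 3 of 18 alternatives (adjusted p 0.0203 to 0.319). TET2, which has the same activity, had 0.55 (SE 0.31, edgeR adjusted p = 0.534), with its groups apart at 48 h.

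TET3 is a case in which 1 library sets the value. It was at 7.81, 0.77 and 8.26 CPM with DMSO and 9.68, 7.4 and 6.54 CPM with Molidustat at 24 h. In the 48 h libraries 6.91, 60.7 and 11.3 CPM were measured with DMSO and 1.57, 7.72 and 3.95 CPM with Molidustat. The value of 60.7 CPM is that of replicate 2 and stands far above every other. The log2 fold change at 48 h was -2.54 (SE 0.9, edgeR adjusted p = 0.238), and without that library -1.09 (SE 0.81, edgeR adjusted p = 0.92). KDM6B, an H3K27 demethylase, had 97.9 CPM in the same library and 7.86 and 12.8 CPM in the other DMSO libraries at 48 h, and its log2 fold change at 48 h went from -0.97 to 0.85 when the library was left out.

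**Figure D3:**
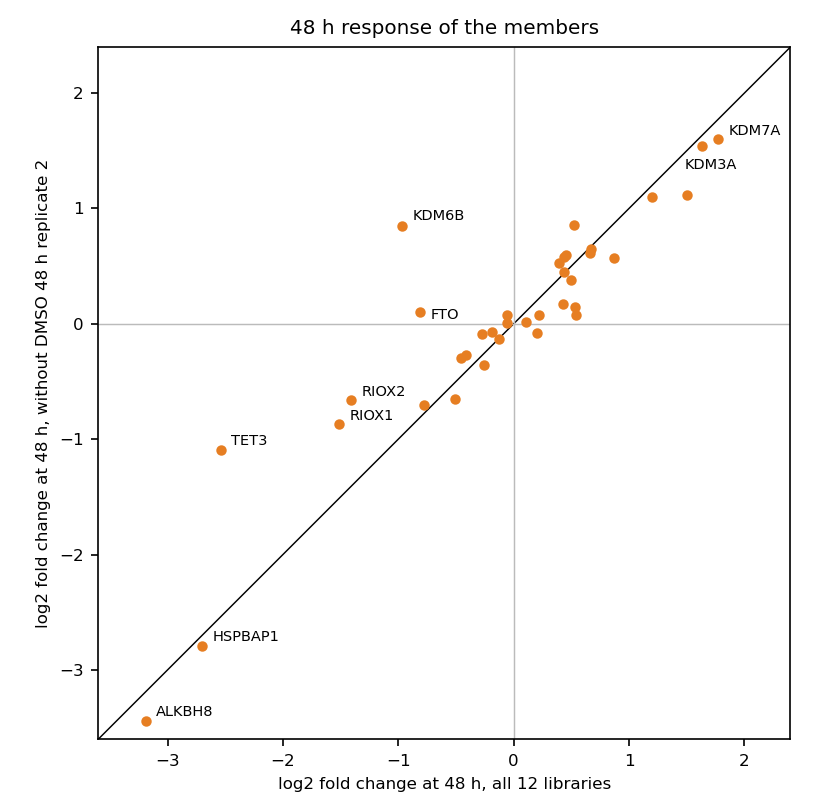
Log2 fold change at 48 h of the 36 members with all 12 libraries (horizontal) and without DMSO 48 h replicate 2 (vertical), with the diagonal of equal values. KDM6B, TET3, FTO, RIOX2 and RIOX1 moved by more than 0.5 towards higher values, while KDM3A, KDM7A, HSPBAP1 and ALKBH8 stayed near the diagonal.

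Of 7 small JmjC proteins tested, 6 had a log2 fold change under 0 over both times, beside 7237 of all 14274 genes, with a median of -0.47, and 0 were called, with 3 lower at an unadjusted p under 0.05, beside the 5.24% of all genes. HSPBAP1 (ENSG00000169087, chr3:122739999-122793831, minus strand), which binds a small heat shock protein, was at 4.82, 5.39 and 4.96 CPM with DMSO and 0, 3.76 and 2.5 CPM with Molidustat at 24 h. The later time gave 8.13, 5.32 and 4.86 CPM with DMSO and 0.674, 1.72 and 0.564 CPM with Molidustat. All treated libraries were below all controls. At 48 h there were 10 counts with Molidustat and 112 with DMSO, a CPM level 7.53 times as high with DMSO (95% counting interval 3.95 to 16.1), and at 24 h the ratio was 1.85 (1.23 to 2.79). These intervals leave out the spread between libraries, which the edgeR fit takes in. The edgeR log2 fold change was -1.2 at 24 h (SE 0.96, adjusted p = 0.999) and -2.7 at 48 h (SE 1.05, adjusted p = 0.276). Over both times the edgeR value was -1.95 (SE 0.71, adjusted p = 0.312).

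RIOX1 and RIOX2, which hydroxylate histidines of ribosomal proteins, also had values under 0, and neither was called over both times. RIOX1 (ENSG00000170468, chr14:73490933-73493394, plus strand) was at 10.6, 19.3 and 19.2 CPM with DMSO and 5.38, 3.88 and 15.2 CPM with Molidustat at 24 h, with overlap. After 48 h the values were 7.73, 24.5 and 8.58 CPM with DMSO and 2.47, 3.43 and 7.33 CPM with Molidustat, with a gap of 7.33 to 7.73 CPM. Its log2 fold change was -1 at 24 h (SE 0.65), -1.51 at 48 h (SE 0.69) and -1.25 over both times (SE 0.47, edgeR adjusted p = 0.332). Without DMSO 48 h replicate 2, the source of the 24.5 CPM, it was -0.87 at 48 h (SE 0.65, edgeR adjusted p = 0.92) and -0.93 over both times (SE 0.44, edgeR adjusted p = 0.413). RIOX2 was at 61.1, 69.7 and 41.9 CPM with DMSO and 28.3, 51.8 and 45.4 CPM with Molidustat at 24 h, with overlap. Its log2 fold change there was -0.45 (SE 0.43, edgeR adjusted p = 0.999). At 48 h it was at 62.6, 195 and 59.8 CPM with DMSO and 44.7, 36.9 and 35.5 CPM with Molidustat. Its value at 48 h was -1.41 (SE 0.44, edgeR adjusted p = 0.208), or -0.66 (SE 0.32, edgeR adjusted p = 0.764) without replicate 2. RIOX1 shares exons with HEATR4 and RIOX2 with CRYBG3, each on the opposite strand.

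TYW5, a tRNA hydroxylase of the wybutosine pathway, was at 39.7, 50 and 42.2 CPM with DMSO and 30.3, 19.7 and 25.7 CPM with Molidustat at 48 h, without overlap except in CPM without TMM scaling. Its log2 fold change was -0.16 at 24 h (SE 0.33), -0.78 at 48 h (SE 0.33) and -0.47 over both times (SE 0.23, edgeR adjusted p = 0.474). JMJD4, JMJD6 and JMJD8 had -0.1, 0.25 and -0.2 over both times, or -0.01, 0.03 and -0.11 without DMSO 48 h replicate 2, and were not called. KDM8 had 15 counts in all with DMSO at 24 h, 0 with Molidustat at 24 h, which allows a level of up to 0.185 CPM by a floor of 3 counts, and 9 in each group at 48 h, too few for a comparison.

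The other histone demethylases were not called by edgeR in the fit of all 12 libraries. KDM5B, which removes methyl groups from H3K4, was at 42.9, 27.3 and 34.7 CPM with DMSO and 54.9, 64.1 and 61.1 CPM with Molidustat at 24 h. At 48 h its libraries overlapped, at 50, 66 and 46.6 against 91.7, 54.9 and 71.2 CPM. Its log2 fold change was 0.78 at 24 h (SE 0.31, edgeR adjusted p = 0.825) and 0.44 at 48 h (SE 0.31, edgeR adjusted p = 0.6). Over both times it was 0.61 (SE 0.22, edgeR adjusted p = 0.303). DESeq2 without DMSO 48 h replicate 2 called it over both times, with 0.7 (SE 0.21, adjusted p = 0.0276). KDM5A and KDM5C had 0.33 and 0.18 over both times. For the H3K36 demethylases the values were -0.01 for KDM2A and 0.32 for KDM2B, and for the H3K27 demethylases 0.39 for KDM6A and -0.28 for KDM6B, which was 0.63 (SE 0.38, edgeR adjusted p = 0.572) without DMSO 48 h replicate 2. For KDM2A, one of the best counted members with at least 174 counts in each library, the 95% interval of the log2 fold change at 24 h, taken with 8 residual degrees of freedom, was -0.64 to 0.74.

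In the edgeR fit of all 12 libraries, the same superfamily beyond chromatin and nucleic acids gave more calls. Of 23 other 2-oxoglutarate dioxygenases, 19 were tested and 4 were called higher over both times, beside 0.988% of all genes. Their median was 0.38. EGLN1, the main HIF prolyl hydroxylase, rose by a log2 fold change of 1.29 (SE 0.23, edgeR adjusted p = 0.00865). The collagen prolyl hydroxylase subunits P4HA1 and P4HA2 rose by 1.69 (SE 0.26, edgeR adjusted p = 0.00288) and 1.93 (SE 0.27, edgeR adjusted p = 0.00113). PLOD2, a collagen lysyl hydroxylase, rose by 1.85 (SE 0.35, edgeR adjusted p = 0.0149). The lowest of the list was OGFOD1, a hydroxylase of a ribosomal protein, with -0.73 (SE 0.34, edgeR adjusted p = 0.442), or -0.22 (SE 0.2, edgeR adjusted p = 0.751) without DMSO 48 h replicate 2, where EGLN2 was the lowest with -0.44 (SE 0.23, edgeR adjusted p = 0.482). KDM3A with 1.68 thus lay within the range of these 4. Without DMSO 48 h replicate 2, edgeR called EGLN1, P4HA1, P4HA2 and PLOD2 again, and it called 3 members. DESeq2 called 4 members over both times, and its calls in this list are not given here. Whether the 2 lists differ was not tested.

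The enzymes that write or read the same marks gave no call over both times. Among 28 histone lysine methyltransferases the edgeR calls were 0. At an unadjusted p under 0.05, 1 was higher and 2 lower, beside 5.79% and 5.24% of all genes. Values ran from -1.21 for KMT5A, the H4K20 monomethyltransferase, to 1.6 for SETDB2. Without DMSO 48 h replicate 2 KMT5A was at -0.49 (SE 0.18, edgeR adjusted p = 0.238). The flavin-dependent demethylases KDM1A and KDM1B, which do not use 2-oxoglutarate, had 0.05 (SE 0.24) and -1.12 (SE 0.7). Among 10 DNA methylation writers and readers values ran from -0.73 for the methyltransferase DNMT3B to 0.3 for the glycosylase TDG, which was at 0.16 without that library, where DNMT3A was the highest with 0.24 against -0.43 with all libraries. Among 14 N6-methyladenosine writers and readers they ran from -0.92 for YTHDF1 to 0.47 for YTHDC2, both readers, and YTHDF1 was at -0.1 (SE 0.24, edgeR adjusted p = 0.936) without that library, where CBLL1, a partner of the writer complex, was the lowest with -0.69 (SE 0.26, edgeR adjusted p = 0.269). In these last 2 lists and the flavin-dependent pair, 0 genes passed an unadjusted p under 0.05 over both times.

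Enzymes that make or use 2-oxoglutarate, succinate and fumarate, the cosubstrate and the known inhibitors of these dioxygenases, were also listed. Of 21, 0 were called over both times by edgeR, and 1 was higher at an unadjusted p under 0.05, beside 5.79% of all genes. The highest was IDH2, the mitochondrial isocitrate dehydrogenase that makes 2-oxoglutarate, with 0.77 (SE 0.22, edgeR adjusted p = 0.162), and without DMSO 48 h replicate 2 it was at 0.66, beside 0.68 for DLST, a subunit of the oxoglutarate dehydrogenase complex.

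**Figure D4:**
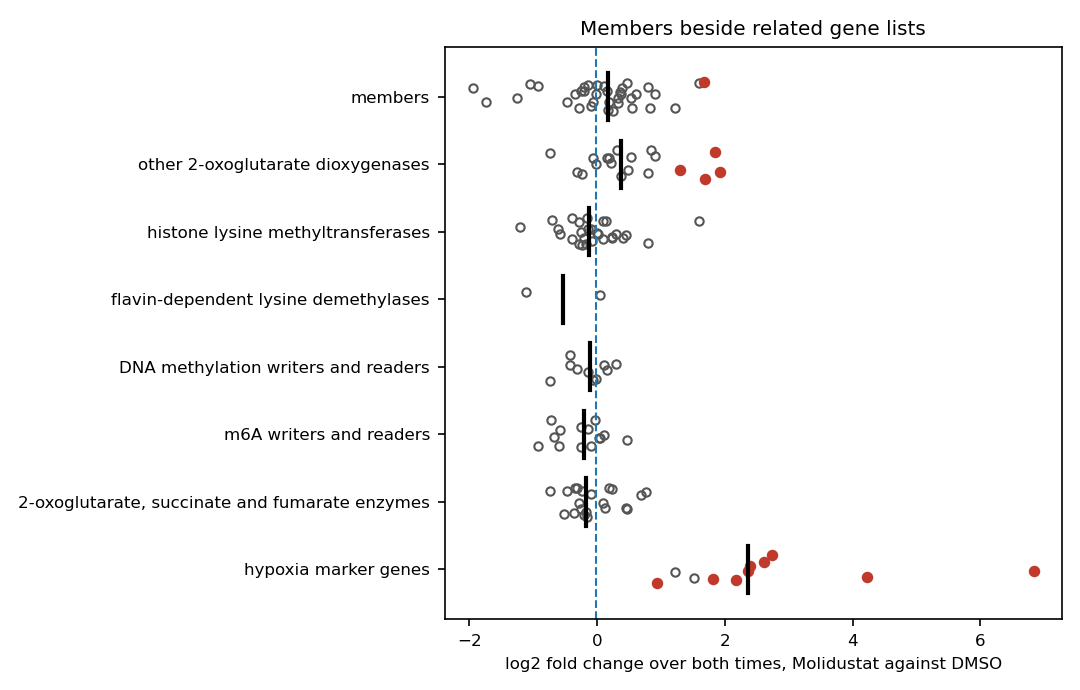
Log2 fold change over both times for the members and for 7 related gene lists, 1 point per gene, with filled red points for an edgeR adjusted p under 0.05, black bars for list medians and a dashed line for the median of all genes. The medians of the members and of 6 lists lie between -0.53 and 0.38, KDM3A is the filled point among the members, and the hypoxia marker genes have a median of 2.36.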

How the data were processed

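Huh7 RNA from 12 samples was sequenced by the authors with a 3′ kit, aligned with STAR 2.7.9a to GRCh38 and counted with HTSeq 0.11.2. The deposited values are raw counts per gene. Annotation release, strand setting and use of molecular identifiers are not given in the sources used here. Names and coordinates came from GENCODE 44, promoter windows from RefSeq. The 5 summary lines per file were kept out of totals.

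Counts were fitted in 1 model with edgeR 4.0.16 (R 4.3.3), after filterByExpr (minimum count 10, total 15) and TMM scaling, with quasi-likelihood tests and Benjamini-Hochberg adjustment over all 14274 genes tested. A call is an adjusted p under 0.05. Alternatives used DESeq2 1.42.0, limma 3.58.1 with sample weights, other scaling and filters, a replicate block and each library left out. CPM values are TMM-scaled. Figures were drawn with matplotlib. The fits were tested on simulated data.

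Full values are given for members called, the 4 known as hypoxia-inducible and the 3 highest and 3 lowest over both times. FTO, ALKBH7, TET3, KDM6B, KDM5B, KDM3B, RIOX2 and TYW5 were described further after their values were seen. Members and lists were chosen with earlier results of these data known. A result of the rule for named genes in a related list is not reported here.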

Additional observations from a re-analysis of the deposited data

How the results depend on the processing

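Members called higher at 24 h (0) were 2 with DESeq2 (0.856% of all genes), 2 with DESeq2 without DMSO 48 h replicate 2 (1.39%), and 0 to 2 when each library was left out in turn, where the 2 came without DMSO 48 h replicate 2 (0.741%). At 48 h (0) they were 1 with DESeq2 (1.28%), 2 with limma-voom (1.84%), 1 without a filter (0.542%) and 1 with DESeq2 without that library (1.09%). Members lower at 48 h (0) were 2 without a filter (2.15%), RIOX2 and TET3. Members higher over both times (1) were 4 with DESeq2 (1.97%), 5 with limma-voom (2.43%), 2 with RLE factors (0.995%), 6 with DESeq2 without that library (2.79%), KDM5B among them, and 1 to 3 with each library left out, where the 3 again came without DMSO 48 h replicate 2 (1.48%). With at least 10 counts in every library the 1 member was ALKBH5, since KDM3A has 9 counts in 1 library and was not tested. Between times with Molidustat, DESeq2 without that library called 1, ALKBH8, lower (0.378%). DESeq2 without that library, CPM without TMM scaling and the related lists without that library were chosen after seeing the data.

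The median of the members at 24 h (0.14) was 0.07 with the replicate block and 0.13 to 0.26 with each library left out. At 48 h (0.15) it was 0.02 to 0.26, and over both times (0.17) 0.06 to 0.19. KDM4C at 48 h was -0.12 with limma-voom, and at 24 h -0.14 to 0.88 with each library left out, and ALKBH8 at 24 h -0.79 to 0.56. The remaining 230 values for counts and medians stayed equal or close. For a median, close means a shift below the spread of the members' median between replicates (0.07). For named members, 479 values kept their sign and their call or lack of one, and 26 crossed to a call. Their sizes still moved. Over all alternatives the 24 h value was 0.79 to 1.75 for KDM7A and 0.68 to 1.25 for KDM4B. For HSPBAP1 it was -2.15 to -0.68, and for RIOX1 -1.84 to -0.64.

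Same-numbered libraries did not deviate together (r -0.09 to 0.14, over 0.1 in 2 of 18 pairs). With the replicate number as a block, 1 member was called higher over both times, and 112 genes of all rather than 141. With edgeR, all genes called at 48 h were 30 higher and 3 lower, with DESeq2 178 and 181. Without DMSO 48 h replicate 2 these counts were 48 and 5 with edgeR, and 158 and 26 with DESeq2. Depth limits the low members: KDM4C, KDM4D, KDM8, HSPBAP1, ALKBH3 and ALKBH8 had under 400 counts over all libraries, and a group with 0 counts still allows 0.167 to 0.254 CPM.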
